A study of Mus musculus with 12 samples.

Results

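The conserved oligomeric Golgi (COG) complex was followed here as the 8 genes Cog1 to Cog8 among the 20614 genes of the expression table. The members were taken by symbol, and all 8 were found. The set was drawn up because Cog6 stood higher in the astrocytes of Cd38-deficient mice than in those of wild-type mice, so the Cog6 values against wild-type mice are given as a description without a test, and the question was whether the other 7 subunits rose with it. Cd38 is an enzyme that consumes NAD. RNA came from astrocytes that were captured with ACSA-2 magnetic beads from the midbrain of male mice aged 12 to 14 months on a C57BL/6J background. The dissected regions that the study's methods name as midbrain were striatum, thalamus and substantia nigra. There were 3 libraries of Cd38+/+ mice, 3 of Cd38+/- mice and 6 of Cd38-/- mice. The mutant allele, carried in the B6.129P2-Cd38tm1Lnd/J strain, disrupts Cd38 in every cell of the animal and not in astrocytes alone. The labels do not say whether each library is a separate animal, so the tests measure the spread between these libraries.

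COG is a tether. It catches vesicles that travel backwards between Golgi cisternae and hands them to the SNARE proteins that fuse them, which keeps glycosyltransferases in the right cisterna. Its subunits form a lobe A of Cog1, Cog2, Cog3 and Cog4 and a lobe B of Cog5, Cog6, Cog7 and Cog8, and inherited defects in COG subunits are known in humans as congenital disorders of glycosylation. Astrocytes secrete many glycoproteins and carry many more on their surface, all of which pass through the Golgi.

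Levels are in TPM, a measure of transcript abundance scaled for transcript length and library total, so that subunits can be compared with each other, and each library sums to 1000000 TPM. Read counts were not used here, so the depth behind a value is unknown. Cd38 itself was at 148.64, 120.04 and 104.88 TPM in the Cd38+/+ libraries, at 90.36 to 90.8 TPM in the Cd38+/- libraries and at 8.54 to 21.86 TPM in the Cd38-/- libraries, which follows the labels. All 9 astrocyte markers were above 0 in every library, with a summed level of 10150 to 14730 TPM in Cd38+/+, 15430 to 17230 TPM in Cd38+/- and 11640 to 14790 TPM in Cd38-/-. The Cd38+/+ libraries stood apart from the mutants in breadth, since 13160 to 13516 genes were above 0 TPM in them against 16160 to 16327 in Cd38+/- and 15920 to 17906 in Cd38-/-. The typical gene also varied more among them, with a median SD of 0.494 on the log2 scale against 0.200 and 0.234. Of the 6 microglial markers, 1 was above 0 in every Cd38+/+ library and Cx3cr1 and Tmem119 were at 0 in all 3, whereas all 6 were above 0 in every mutant library. The summed microglial level was 98.4 to 102 TPM in Cd38+/+, 121 to 138 TPM in Cd38+/- and 106 to 135 TPM in Cd38-/-. The 3 erythroid markers summed to 4306 to 18490 TPM in Cd38+/+, 1726 to 3530 TPM in Cd38+/- and 2106 to 8376 TPM in Cd38-/-. The 6 oligodendrocyte markers overlapped between genotypes, at 1295 to 7183, 3089 to 11010 and 3173 to 17800 TPM in the same order, with Mog at 0 in all 3 Cd38+/+ libraries. The 3 mural markers summed to 59.0 to 112, 122 to 169 and 76.2 to 156 TPM, the 4 endothelial markers to 167 to 688, 129 to 264 and 145 to 415 TPM, and the 8 neuronal markers to 42.0 to 59.7, 24.4 to 53.4 and 30.8 to 110 TPM. The 6 ependymal and choroid plexus markers summed to 1619 to 2865, 1715 to 8676 and 2046 to 4493 TPM, and the 2 markers of oligodendrocyte precursors to 35.5 to 96.8, 24.7 to 85.8 and 21.8 to 75.3 TPM. Of the 8 neuronal markers, 5 were above 0 in every Cd38+/+ library, with Th at 0 in all 3. For the 6 ependymal and choroid plexus markers this number was 4, with Kl at 0 in all 3. Every marker of both lists was above 0 in every mutant library. The part of any of these differences in the subunit values below was not tested. In a bulk library, fewer cells of a type and less RNA per cell cannot be told apart.

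The 8 genes lie on 6 chromosomes of GRCm38. Cog6 (ENSMUSG00000027742) lies at chr3:52981875-53017237 on the minus strand. Cog2 (ENSMUSG00000031979), Cog4 (ENSMUSG00000031753) and Cog8 (ENSMUSG00000031916) share chromosome 8, at chr8:124520767-124552008 on the plus strand, chr8:110846600-110882227 on the plus strand and chr8:107046289-107056689 on the minus strand. Cog1 (ENSMUSG00000018661) lies at chr11:113649169-113667054 on the plus strand, Cog3 (ENSMUSG00000034893) at chr14:75702350-75754517 on the minus strand, Cog5 (ENSMUSG00000035933) at chr12:31654869-31937630 on the plus strand and Cog7 (ENSMUSG00000034951) at chr7:121879363-121981711 on the minus strand.

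The promoters of the 3 subunits whose levels separated the genotypes, Cog6, Cog2 and Cog4, are shown to set their sequences side by side. Each runs from 250 bases before to 50 bases after the transcription start in RefSeq (GRCm38.p6), written 5′ to 3′ on the gene's strand. Cog6 is at chr3:53017174-53017473 on the minus strand, Cog2 at chr8:124520517-124520816 on the plus strand and Cog4, which has a pair of RefSeq starts, at chr8:110846774-110847073 on the plus strand for the downstream one. Capitals mark CGCATGCG, the core that the factor NRF1 binds, in Cog6, and CCGGAAG, the core of ETS factors, or its reverse complement in Cog2 and Cog4.
Cog6: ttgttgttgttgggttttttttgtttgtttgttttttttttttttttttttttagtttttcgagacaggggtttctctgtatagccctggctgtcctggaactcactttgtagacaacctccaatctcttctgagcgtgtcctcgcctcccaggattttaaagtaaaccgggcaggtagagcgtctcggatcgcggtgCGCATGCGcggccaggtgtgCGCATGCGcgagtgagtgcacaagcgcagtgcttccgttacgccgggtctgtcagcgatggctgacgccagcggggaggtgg
Cog2: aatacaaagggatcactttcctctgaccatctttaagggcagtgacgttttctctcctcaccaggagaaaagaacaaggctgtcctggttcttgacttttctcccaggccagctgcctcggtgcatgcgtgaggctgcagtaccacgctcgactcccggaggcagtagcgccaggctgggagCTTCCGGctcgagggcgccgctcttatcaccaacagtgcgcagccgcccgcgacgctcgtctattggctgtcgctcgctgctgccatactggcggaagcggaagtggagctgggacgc
Cog4: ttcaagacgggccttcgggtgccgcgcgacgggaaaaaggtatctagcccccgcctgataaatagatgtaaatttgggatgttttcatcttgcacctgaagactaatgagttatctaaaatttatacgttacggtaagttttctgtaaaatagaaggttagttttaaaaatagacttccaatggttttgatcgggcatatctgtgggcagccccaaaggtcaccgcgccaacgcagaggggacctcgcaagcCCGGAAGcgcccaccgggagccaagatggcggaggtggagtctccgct

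The Cog6 window held CGCATGCG at 2 places, starting 52 and 32 bases before the start. Searched on both strands, that motif was in 1.87% of 32851 mouse promoter windows of this length and occurred 2 or more times in 0.140% of them, and none of the windows of the other 7 subunits held it. It was chosen for the search after the Cog6 sequence had been read. The ETS core CCGGAAG was in windows of 5 of the 8 genes, against 8.86% of all windows, but not in that of Cog6. For Cog4 it was in the downstream window only. The upstream one, at chr8:110846350-110846649, held none of the motifs searched. ACGTGGC, the core of an element known from the Golgi stress response, was in the window of Cog3 alone among the 8 genes and in 2.58% of all windows. GGGCGG (the GC box) was in windows of 6 of the 8 genes and CCAAT in those of 5, against 35.7% and 37.4% of all windows. TATAAA was in windows of 2 of the 8 genes, against 13.6%. These matches describe the letters of the windows and say nothing of which factors bind there.

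In wild-type astrocytes the subunits were far from equal in level, and Cog6 had the lowest mean, although it was the lowest subunit in replicate 2 only, with Cog5 lowest in replicate 1 and Cog3 in replicate 3. Cog4 led at 69.5 ± 2.64 TPM (SD, n = 3) and was above every other subunit in each of the 3 libraries. It was followed by Cog7 at 49.2, Cog8 at 44.4, Cog1 at 32.5, Cog5 at 23.0, Cog2 at 22.7, Cog3 at 17.5 and Cog6 at 15.7 TPM. Below Cog4, each neighbour in this order overlapped the next over the libraries. In Cd38-/- astrocytes Cog7 led at 58.1 ± 6.29 TPM (SD, n = 6), Cog4 followed at 53.1, and Cog6 was the third at 44.6 TPM. Cog7 was above Cog4 in all 6 of these libraries, although their ranges overlapped, and the 2 lowest were Cog3 at 19.8 and Cog5 at 17.4 TPM. The order in Cd38+/- astrocytes was the same except that Cog3 and Cog5 changed places, with Cog6 again the third at 50.6 TPM.

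**Figure D1:**
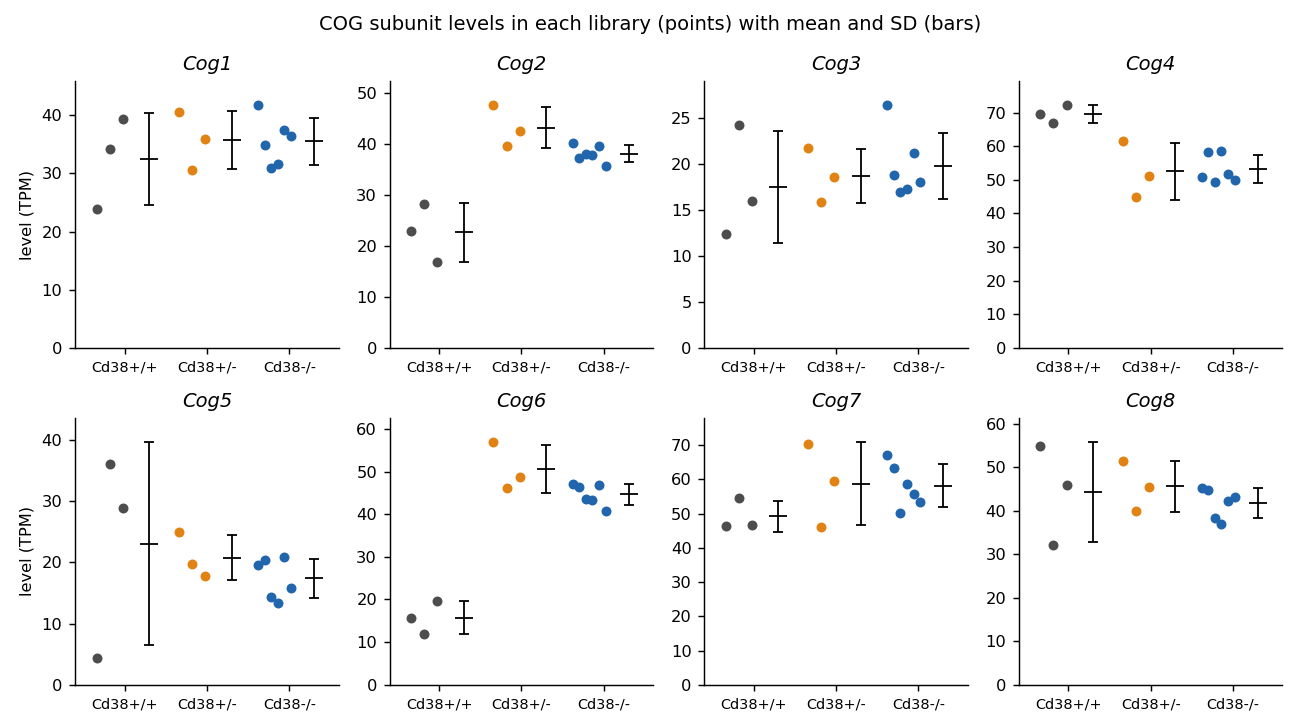
Level of each COG subunit in TPM (vertical axes, from 0, a different scale in each panel) in the 12 libraries, with 1 point per library in replicate order within each genotype and the mean and SD beside them. Cog6 and Cog2 sit higher and Cog4 lower in all 9 mutant libraries than in the 3 Cd38+/+ libraries, and Cog5 has 1 Cd38+/+ library at 4.34 TPM.

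Cog6, a lobe B subunit that takes part in contacts with Golgi SNAREs, was at 15.69, 11.83 and 19.65 TPM in Cd38+/+. It was at 56.92, 46.10 and 48.67 TPM in Cd38+/-. In Cd38-/- it ranged from 40.73 to 47.06 TPM with a median of 45.0. Every mutant library was above every wild-type library, with a wide gap between 19.65 and 40.73 TPM that held no library. The ratio of mean levels to Cd38+/+ was 3.22 in Cd38+/- and 2.84 in Cd38-/-. On the scale of log2(TPM + 1), which understates the change of low genes, the differences were 1.65 (SE 0.28) and 1.47 (SE 0.19), and they placed Cog6 at the 97.6th and 96.9th percentile of all genes. These values chose the set and carry no test.

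Of the other 7 subunits, 1 passed the test in Cd38-/- against Cd38+/+ (limma on log2(TPM + 1), a Storey q under 0.05 together with a fold of 1.2 or more), which was Cog2. Over all genes tested in that comparison 8.28% passed. A separate count took the subunits whose ranges over the libraries were apart. These were 2 of the 7, Cog2 higher and Cog4 lower, against 11.8% of all genes tested (8.21% higher and 3.62% lower). In Cd38+/- against Cd38+/+ none of the 7 passed, as for 0% of all 11763 genes tested, although 1586 of those had an unadjusted p under 0.05 and 1 of the 7, Cog2, was among them. The study's own test, at the q and fold thresholds of its methods, did call genes in this comparison. Cog2 and Cog4 again did not overlap, against 22.5% of all genes tested (15.5% higher and 6.94% lower). Both comparisons use the same 3 Cd38+/+ libraries. Among all 970 genes that passed in Cd38-/-, 752 were higher and 218 lower, and with median-ratio scaling or quantile normalization the splits were 564 to 377 and 563 to 552. The median difference of all genes moved with them, from 0.15 to 0.04 and 0.01 on the log2 scale.

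Cog2 rose in Cd38-/-. This lobe A subunit was at 22.94, 28.35 and 16.81 TPM in Cd38+/+ and at 47.62, 39.62 and 42.53 TPM in Cd38+/-, and it ranged from 35.76 to 40.28 TPM with a median of 38.0 in Cd38-/-. The 6 null libraries lay close together, and all 9 mutant libraries were above the wild-type libraries. The difference from Cd38+/+ was 0.75 (SE 0.19, limma q = 0.0294) in Cd38-/-, with a ratio of means of 1.68, and the exact permutation test, two-sided, gave p = 0.0119, the smallest that 6 against 3 libraries allow. In Cd38+/- the difference was 0.93 (SE 0.28, limma q = 0.178) with a ratio of 1.91, and the exact permutation p was 0.1, the smallest that 3 against 3 libraries allow. The call in Cd38-/- was a narrow one. Among other settings, it was lost with Benjamini-Hochberg adjustment (q = 0.0520), with library quality weights (q = 0.310) and without Cd38-/- replicate 1, 2, 5 or 6 (q = 0.0711, 0.0765, 0.0742 and 0.0629), whereas the difference stayed between 0.56 and 0.92 in these and all other settings tried.

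Cog4 went the other way without passing the test. This lobe A subunit, which binds the SNARE regulator Scfd1 (Sly1), was at 69.52, 66.86 and 72.13 TPM in Cd38+/+ and at 61.61, 44.98 and 51.09 TPM in Cd38+/-. In Cd38-/- it ranged from 49.28 to 58.42 TPM with a median of 51.3. All 9 mutant libraries were below all 3 wild-type libraries. The difference was -0.39 (SE 0.13, limma q = 0.0670) in Cd38-/- with an exact permutation p of 0.0119, and -0.41 (SE 0.20, limma q = 0.256) in Cd38+/- with an exact permutation p of 0.1. It passed in Cd38-/- with median-ratio scaling (q = 0.0371), with no filter on low values (q = 0.0199), with all 12 libraries in one fit (q = 0.0437) and without Cd38+/+ replicate 2 or 3 (q = 0.0453 and 0.0476). In the other 17 of 22 alternative settings Cog4 did not pass, with limma q up to 0.489. The settings where it passed called 941 of 11722, 2283 of 18906, 1822 of 11722, 1931 of 11735 and 3119 of 11779 genes tested, in that order. The main fit called 970 of 11722. Scfd1 itself had a mean of 57.3 TPM in Cd38+/+ and 48.5 TPM in Cd38-/-, a difference of -0.24 (limma q = 0.173).

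**Figure D2:**
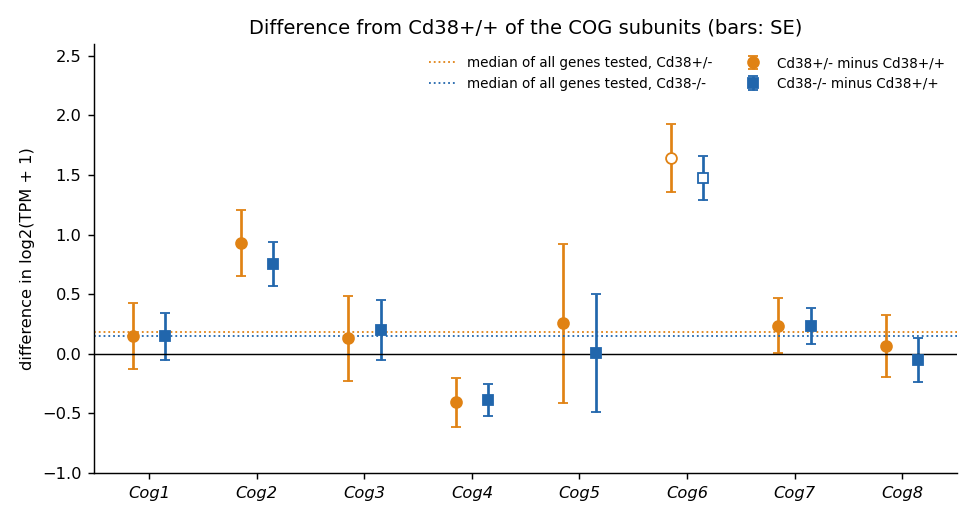
Difference from Cd38+/+ on the log2(TPM + 1) scale for each subunit in Cd38+/- (circles) and Cd38-/- (squares), with SE as bars and the medians of all genes tested as dotted lines; open symbols mark Cog6, whose values chose the set. Cog2 lies at 0.93 and 0.75 and Cog4 at -0.41 and -0.39, while the other 5 subunits lie between -0.05 and 0.26.

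The remaining lobe A subunits overlapped between genotypes and did not pass the test. Cog1 was at 23.90, 34.28 and 39.29 TPM in Cd38+/+ and at 40.54, 30.61 and 35.93 TPM in Cd38+/-, and ranged from 30.97 to 41.70 TPM with a median of 35.6 in Cd38-/-. Its difference in Cd38-/- was 0.15 (95% interval -0.28 to 0.57, limma q = 0.382), a range that leaves room for a change in either direction. Cog3, whose loss is known to scatter COG-dependent vesicles, was at 12.36, 24.22 and 15.97 TPM in Cd38+/+ and at 21.70, 15.85 and 18.55 TPM in Cd38+/-, and ranged from 16.96 to 26.38 TPM in Cd38-/-. The difference in Cd38-/- was 0.20 (95% interval -0.35 to 0.75, limma q = 0.368). In Cd38+/- the differences were 0.15 for Cog1 and 0.13 for Cog3.

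The partners of Cog6 in lobe B did not rise detectably with it. Cog7, the subunit in which a COG defect was first found in patients, was at 46.39, 54.56 and 46.72 TPM in Cd38+/+ and at 70.50, 46.19 and 59.63 TPM in Cd38+/-, and ranged from 50.32 to 67.23 TPM with a median of 57.2 in Cd38-/-. Its difference in Cd38-/- was 0.23 (95% interval -0.09 to 0.56, limma q = 0.204, exact permutation p = 0.0714), with 4 of the 6 null libraries above the highest wild-type library. Cog8, which links the lobes together with Cog1, was at 54.97, 32.20 and 45.94 TPM in Cd38+/+ and at 51.57, 39.93 and 45.50 TPM in Cd38+/-, and ranged from 37.07 to 45.17 TPM in Cd38-/-. Its difference there was -0.05 (95% interval -0.45 to 0.34, limma q = 0.502).

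Cog5, which pairs with Cog7, rested on a single wild-type library. It was at 4.34, 35.97 and 28.81 TPM in Cd38+/+, at 24.88, 19.67 and 17.73 TPM in Cd38+/- and at 13.42 to 20.84 TPM in Cd38-/-, with a median of 17.6. Without Cd38+/+ replicate 1 every null library was below both wild-type libraries. The difference in Cd38-/- was 0.01 (95% interval -1.07 to 1.08, limma q = 0.563) with all libraries, but -0.87 (limma q = 0.0260, past the threshold) without Cd38+/+ replicate 1. The fit without that library called 1829 of 11778 genes tested, 501 of them lower. With all libraries it was 970 of 11722, 218 of them lower. In Cd38+/- the difference of Cog5 was 0.26 with all libraries and -0.62 without Cd38+/+ replicate 1. Hbp1, a gene on the opposite strand whose exons overlap those of Cog5, was at 73.07 TPM in that library and at 34.79 and 54.61 TPM in the other wild-type libraries, the reverse of the order of Cog5.

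No subunit passed the test between the mutant genotypes. In Cd38-/- against Cd38+/- this was 0 of 8 by limma, against 0.0346% of all 11563 genes tested (4 genes, with 1299 at an unadjusted p under 0.05), and the libraries of all 8 overlapped, against 5.73% of all genes that did not. Cog6, which may be tested here because the set was not chosen on this comparison, differed by -0.17 (95% interval -0.40 to 0.05, limma q = 0.400, exact permutation p = 0.0595). Cog2 differed by -0.17 (95% interval -0.39 to 0.04, limma q = 0.390), where the exact permutation test of its log2(TPM + 1) gave p = 0.0357 before any correction over the 8 subunits. Cog4 differed by 0.02 (95% interval -0.23 to 0.28, limma q = 0.698).

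The 8 subunits added up to 275 ± 21.2 TPM in Cd38+/+ (SD, n = 3), 326 ± 46.5 TPM in Cd38+/- (n = 3) and 308.5 ± 21.1 TPM in Cd38-/- (n = 6). Without Cog6 the sums were 259, 275 and 264 TPM, all within the spread of the libraries. Lobe A summed to 142, 150 and 146.5 TPM, as Cog2 and Cog4 moved in opposite directions. Lobe B summed to 132, 176 and 162 TPM, and to 117, 125 and 117 TPM without Cog6.

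As a share of the 8-subunit sum, Cog6 went from 5.76% ± 1.46 in Cd38+/+ to 15.6% ± 0.634 in Cd38+/- and 14.5% ± 0.596 in Cd38-/- (SD, n = 3, 3 and 6). Cog2 took 8.30% ± 2.11, 13.3% ± 0.658 and 12.4% ± 0.691 in the same order, and Cog4 took 25.4% ± 2.30, 16.1% ± 0.277 and 17.3% ± 1.54. Because Cog6 is part of that sum and its rise chose the set, these shares are a description. Tests were run on shares of the sum of the other 7 subunits, an alternative chosen after seeing the data, and are not corrected over the 7. Of that sum, Cog2 took 8.79% ± 2.15 in Cd38+/+ and 14.5% ± 0.897 in Cd38-/-, higher in each of the 6 null libraries than in any wild-type library (exact permutation p = 0.0119). Cog4 took 27.0% ± 2.74 and 20.2% ± 1.84, lower in each null library than in any wild-type library (exact permutation p = 0.0119). Cog7 took 19.04% ± 1.26 and 22.0% ± 1.11, also without overlap (exact permutation p = 0.0238), although its TPM ranges overlapped. Shares of one sum depend on each other, so those of Cog2, Cog4 and Cog7 are not separate results. No such share was worked out for other genes, so these separations have no background to be set against. The shares of Cog1, Cog3, Cog5 and Cog8 overlapped, with exact permutation p-values from 0.405 to 0.512.

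**Figure D3:**
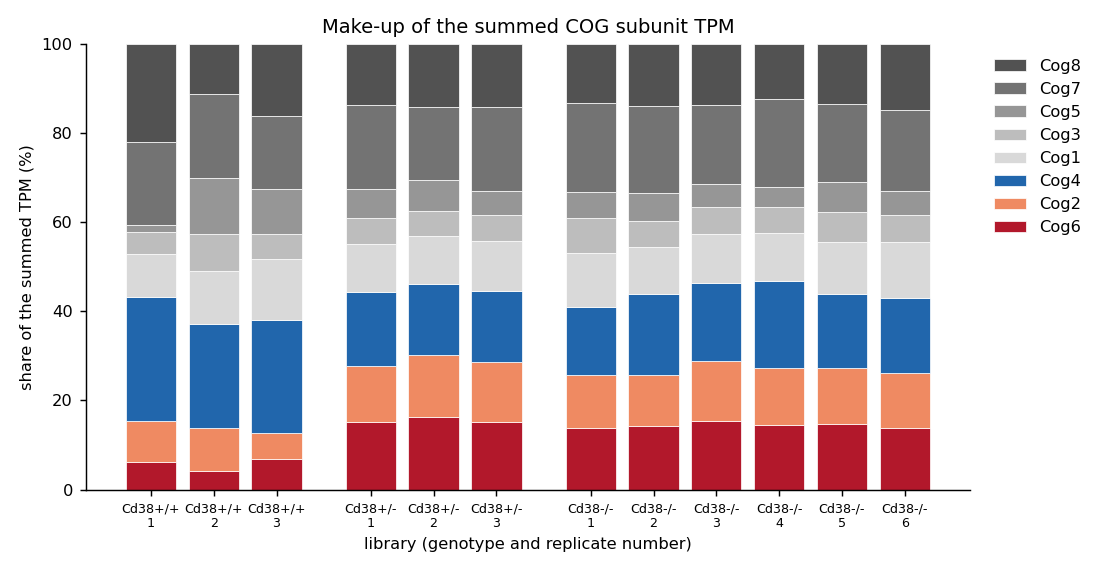
Share of each subunit in the summed TPM of the 8 subunits (vertical axis, percent) in each of the 12 libraries, with Cog6, Cog2 and Cog4 in colour and the other 5 in greys. The 3 Cd38+/+ libraries have the thin Cog6 segment (4.10 to 6.89%) and the thick Cog4 segment (23.2 to 27.8%), and the 9 mutant libraries resemble each other.

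The levels of Cog6 and Cog2 kept nearly the same ratio in every mutant library. Cog6 was 1.14 to 1.195 times Cog2 in Cd38+/- and 1.14 to 1.24 times in Cd38-/-. In Cd38+/+ the ratio was 0.684, 0.417 and 1.17, as the library with the most Cog2 had the least Cog6. Cog2 was 0.233 to 0.424 times Cog4 in the wild-type libraries, 0.773 to 0.881 times in Cd38+/- and 0.641 to 0.792 times in Cd38-/-. Cog6 was 0.217 to 0.421, 0.807 to 0.998 and 0.700 to 0.866 times its lobe partner Cog7 in the 3 genotypes. In both of these ratios every mutant library was above every wild-type library. For Cog6 to Cog7 this largely restates the rise of Cog6, which chose the set. For Cog2 to Cog4 it follows from their separate ranges given above. Both are a description and carry no test.

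**Figure D4:**
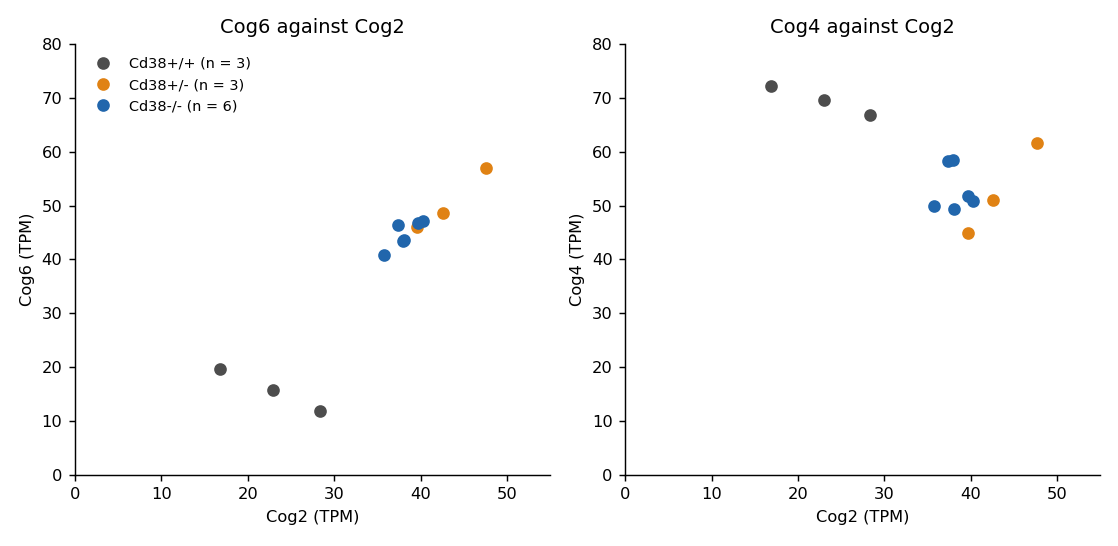
Cog6 (left) and Cog4 (right) against Cog2, all in TPM with axes from 0, with 1 point per library. The 9 mutant libraries form a group at 35.76 to 47.62 TPM of Cog2, apart from the 3 Cd38+/+ libraries at 16.81 to 28.35 TPM, and within the wild-type group both Cog6 and Cog4 are lowest where Cog2 is highest.

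Across the 12 libraries the 28 pairs of subunits had a median Pearson r of 0.19, from -0.73 (Cog4 with Cog6) to 0.82 (Cog2 with Cog6). These values describe libraries that share a genotype within each group and carry no test. After the genotype means were subtracted the median was 0.21, and Cog2 with Cog6 was at -0.59, which follows their opposite order in Cd38+/+. Within the 6 null libraries alone the median was 0.55, with Cog1 and Cog3 highest at 0.92 and Cog2 with Cog6 at 0.83.

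The genes whose level followed Cog6 most closely over the 12 libraries were not subunits of the complex. Among 11373 genes with a mean above 5 TPM, the highest r with Cog6 on log2(TPM + 1) was that of Kdm8 (0.988), followed by Zfp445 (0.985), Unc45a (0.983), Zkscan5 (0.980) and Tmem167b (0.974). Kdm8 is a Jumonji-domain protein, Zfp445 and Zkscan5 are zinc finger proteins, and Unc45a is a myosin chaperone. All 5 were low in Cd38+/+ and alike in both mutants, as with Zfp445 at 12.9, 48.3 and 43.5 TPM and Unc45a at 18.1, 50.9 and 50.9 TPM in Cd38+/+, Cd38+/- and Cd38-/-. Cog2 came at rank 505 (r = 0.82), Cog7 at rank 3227 (r = 0.53) and Cog4 at rank 10972 (r = -0.73). These r values mostly restate the step between wild-type and mutant libraries.

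Of the nearest genes to Cog6 on chromosome 3, none passed the test in Cd38-/- against Cd38+/+. Lhfp, the nearest at 24.3 kb, had a mean of 105 TPM in Cd38+/+, 141 TPM in Cd38+/- and 130 TPM in Cd38-/-. Its mutant libraries were all above its wild-type libraries, with a difference of 0.31 (limma q = 0.0849) in Cd38-/-. Foxo1, a transcription factor gene 628.7 kb away, was at 33.3, 36.1 and 35.2 TPM (limma q = 0.520 in Cd38-/-). Nhlrc3, at 431.3 kb, was at 10.0, 16.2 and 13.5 TPM (limma q = 0.225). Maml3, at 876.8 kb, which encodes a Notch co-activator, was listed at 0 in the 3 wild-type libraries and at 1.15 to 3.14 TPM in the mutants, below the level at which genes were tested.

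Reads of some subunits may be shared with an overlapping gene, since the library kit does not mark the strand. No annotated gene overlaps Cog2 or Cog6. The exons of Cog4 overlap those of Sf3b3, a splicing factor gene on the opposite strand, which was at 39.0, 56.9 and 55.1 TPM in Cd38+/+, Cd38+/- and Cd38-/- (difference in Cd38-/- 0.49, limma q = 0.0742), the opposite direction to Cog4. Hbp1, which overlaps Cog5, rose in Cd38-/-, from 54.2 to 87.9 TPM (difference 0.74, SE 0.21, limma q = 0.0418). Pdf, a mitochondrial deformylase gene on the same strand as Cog8 with which it shares exons, was at 60.8, 43.9 and 48.2 TPM, lower in all 9 mutant libraries than in the wild-type libraries (difference in Cd38-/- -0.33, limma q = 0.116). Fam104a, opposite Cog1, was at 29.7, 21.7 and 23.9 TPM (limma q = 0.316). How reads were divided within these pairs cannot be told from TPM.

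The machinery around COG was taken as 10 lists with 100 genes in the table, of which 99 were tested. In Cd38-/- against Cd38+/+, 5 rose, 94 did not pass and none fell, against 6.42% of all genes tested that were higher and 1.86% that were lower. Without one of the Cd38+/+ libraries, 3 to 7 of the list genes fell. Over all genes tested, 501 of 11778, 537 of 11735 and 850 of 11779 fell without Cd38+/+ replicate 1, 2 or 3. The median difference over the 99 genes was 0.22, beside 0.15 over all genes. In Cd38+/- against Cd38+/+ none of the 99 passed, with 13 at an unadjusted p under 0.05 and a median of 0.25 beside 0.18. In Cd38-/- against Cd38+/- none passed, with 5 at an unadjusted p under 0.05.

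The 5 genes that rose, of 99 tested, belong to other tethers and to a SNARE. Over all genes tested 6.42% were called higher, a share that 5 of 99 do not exceed. The exocyst, the tether of the plasma membrane and a relative of COG, had 2 of its 9 subunits among them. Exoc2 was at 25.82, 14.01 and 20.78 TPM in Cd38+/+, 29.58 to 45.42 TPM in Cd38+/- and 32.57 to 46.92 TPM in Cd38-/- (difference in Cd38-/- 0.90, SE 0.22, limma q = 0.0276). Exoc1 was at 41.1, 37.95 and 57.45 TPM, 64.72 to 69.13 TPM and 50.92 to 78.14 TPM in the same order (0.63, SE 0.18, limma q = 0.0434). TRAPP, a tether and Rab exchange factor of the early Golgi, had 2 of its 14. Trappc12 was at 21.68, 40.63 and 16.57 TPM in Cd38+/+, 42.72 to 56.72 TPM in Cd38+/- and 42.74 to 59.54 TPM in Cd38-/- (1.00, SE 0.25, limma q = 0.0308). Trappc8 was at 5.56, 10.19 and 19.0 TPM, 21.75 to 39.96 TPM and 18.5 to 42.34 TPM (1.39, SE 0.36, limma q = 0.0322). Among 14 Golgi SNAREs and their regulators, Vti1a, a SNARE of the trans-Golgi, passed. It was at 27.91, 24.59 and 33.2 TPM in Cd38+/+, 43.65 to 58.17 TPM in Cd38+/- and 44.58 to 69.73 TPM in Cd38-/- (0.92, SE 0.18, limma q = 0.0163). Exoc2, Trappc12 and Vti1a did not overlap between Cd38-/- and Cd38+/+, whereas Exoc1 and Trappc8 did. Of the 99 list genes 7 did not overlap, beside 11.8% of all genes tested (8.21% higher and 3.62% lower).

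No gene passed in the other 7 lists. These were GARP and EARP (5 genes), the Dsl1 complex (3), HOPS and CORVET (8), the golgins (12), the Golgi Rab GTPases (8), the COPI coat (10) and Golgi glycosylation and ion homeostasis (16 tested). Their median differences in Cd38-/- ran from 0.02 for the glycosylation list to 0.67 for the 3 Dsl1 genes. The number that passed over the 10 lists was 2 with Benjamini-Hochberg adjustment, 0 with library quality weights, 9 with no filter on low values and 11 with all 12 libraries in one fit. It was 15 (12 higher, 3 lower), 15 (12 higher, 3 lower) and 26 (19 higher, 7 lower) without Cd38+/+ replicate 1, 2 or 3, and 1, 0, 0 and 1 without Cd38-/- replicate 1, 2, 5 or 6. Over all genes tested, 1829 of 11778, 1931 of 11735 and 3119 of 11779 passed without Cd38+/+ replicate 1, 2 or 3. The all-gene counts were 112, 74, 93 and 154 without Cd38-/- replicate 1, 2, 5 or 6. With Benjamini-Hochberg adjustment, quality weights, no filter and the 12-library fit they were 326, 1, 2283 and 1822.

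**Figure D5:**
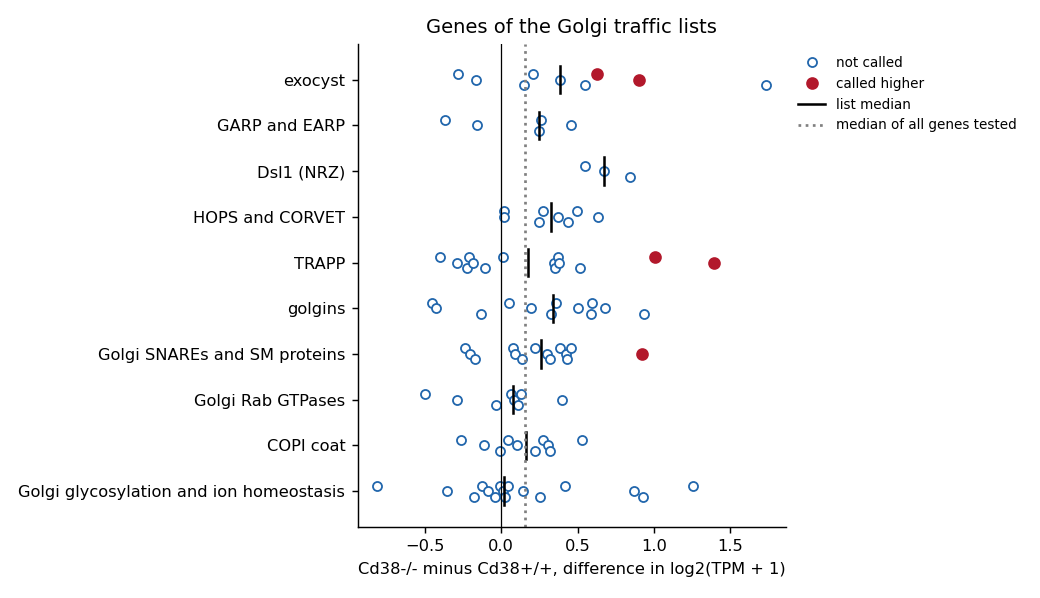
Difference between Cd38-/- and Cd38+/+ on the log2(TPM + 1) scale (horizontal axis) for the 99 tested genes of the 10 lists, with 1 circle per gene, filled where it passed the test, black bars at the list medians and a dotted line at the median of all genes tested (0.15). The 5 filled circles lie at 0.63 to 1.39 in the exocyst, TRAPP and SNARE lists.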

How the data were processed

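Astrocyte RNA of 12 libraries was rRNA-depleted and amplified with a SMART-Seq low-input kit. The authors trimmed reads with Trim Galore 0.6.4, mapped them to mm10 with STAR 2.7.1a and estimated expression with RSEM 1.2.28; the submitters' notes also list DESeq2 1.36.0, and the annotation is not given in the sources used here. The deposited values are TPM, rounded to hundredths, 1 column per library. TPM rests on no counts here, so depth is unknown and counting error has no interval.

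Genotypes came from the sample labels. The 8 members, the gene lists, the tests and the promoter motifs were chosen with earlier results of these data known. Genes with a mean above 5 TPM in at least 1 compared genotype were kept, which all 8 members passed, and limma 3.58.1 (eBayes with a trend, R 4.3.3) was run on log2(TPM + 1) in the libraries of the genotypes compared. A gene was called at a Storey q under 0.05 with a fold of at least 1.2, after the fold and q thresholds of the study's methods. Single values were compared by two-sided exact permutation tests of the difference in means, on log2(TPM + 1) for levels and on percentages for shares. Named genes were the members, Cd38, up to 4 called genes per list, the 5 genes most like Cog6, its 2 neighbours on each side, overlapping genes and cell type markers; Scfd1 was added after its values were seen. The likeness to Cog6 after subtraction of genotype means is not reported here. Positions are those of GENCODE vM21 (GRCm38), where 20503 of the 20614 genes were found, and promoters from RefSeq. The fit was tested on simulated data. Alternatives changed the pseudocount, the filter, the adjustment, the variance model, the scaling, the libraries and a replicate block.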

Additional observations from a re-analysis of the deposited data

Results flagged for a closer look

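Cog2 was the single subunit whose change against Cd38+/+ differed between the mutant genotypes by an exact permutation test of its log2(TPM + 1) (p = 0.0357, two-sided, 1 of 8 such tests and not corrected for them). Its mean was 38.2 TPM in Cd38-/- and 43.3 TPM in Cd38+/-, a ratio of 0.882, with overlapping libraries, and limma over all genes gave q = 0.390. No library stood apart from the others in any of the 16 sets of null-genotype values examined, the TPM and the share of each subunit. The groups of 3 libraries were too small for that examination, so the Cog5 value of 4.34 TPM in Cd38+/+ replicate 1 was not tested.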

How the results depend on the processing

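Cog6 stayed higher than in Cd38+/+ in every setting tried, by 1.28 to 1.64 on the log2 scale in Cd38-/- and by 1.44 to 1.81 in Cd38+/-, with the lowest Cd38-/- value, 1.28, at a pseudocount of 5. Cog2, Cog4 and Cog7 also kept their direction against Cd38+/+ throughout. Depth is unknown, so whether it limits a value cannot be told.

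In Cd38-/- against Cd38+/+ the count of other subunits called was 0 with Benjamini-Hochberg adjustment or quality weights, 2 with no filter, median-ratio scaling or all 12 libraries in one fit, and 0 to 2 with one library left out. All genes called numbered 326, 1, 2283 and 1822 with Benjamini-Hochberg adjustment, quality weights, no filter and the 12-library fit, and 74 to 3119 with one library left out. Golgi traffic genes called numbered 2, 0, 9 and 11 in the same order, and 0 to 26. In Cd38+/- against Cd38+/+ the 12-library fit called 1 other subunit (Cog2), 13 Golgi traffic genes and 1464 genes, while all genes called numbered 663 with no filter, 9 without the variance trend, 30 with quality weights and 0 to 10 with one library left out. In Cd38-/- against Cd38+/- quality weights called 3120 genes and 14 Golgi traffic genes, where median-ratio scaling, removal of the length and GC trend and the 12-library fit called 1, 2 and 1, and leaving out one library 0 to 93. The cause of these shifts was not tested.

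Same-numbered libraries correlated from -0.0924 to 0.0447 in their deviations in the comparisons with Cd38+/+ and from -0.307 to 0.454 between the mutants. Differently numbered ones ran from -0.141 to 0.174 and from -0.537 to 0.515 in the same order. With so few libraries these values cannot tell whether the numbers pair libraries, and the labels do not say. With a replicate block, in which Cd38-/- replicates 4 to 6 have no partner, the counts in Cd38-/- against Cd38+/+ were 0 other subunits (Cog2 q = 0.366), 0 Golgi traffic genes and 2 genes in all, with or without the length and GC trend removed. All genes called under the block were 4 in Cd38+/- against Cd38+/+ and 2 in Cd38-/- against Cd38+/-, or 2 and 8 with the trend removed.

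Small uncalled differences changed sign. In Cd38-/- against Cd38+/+, Cog5 was -0.082 at a pseudocount of 5, -0.103 with median-ratio scaling, -0.216 with quantile normalization, -0.0937 with the length and GC trend removed, -0.0423 with the block added to that, and -0.87 to 0.52 with one library left out. Leaving out one library gave -0.0544 to 0.29 for Cog1, -0.00808 to 0.45 for Cog3 and -0.26 to 0.11 for Cog8. In Cd38+/- against Cd38+/+, Cog8 was -0.0629, -0.00303 and -0.0882 with median-ratio scaling, quantile normalization and the trend removed (-0.0882 with the block too), Cog3 was -0.0941 with quantile normalization, and leaving out one library gave -0.0481 to 0.30 for Cog1, -0.0812 to 0.38 for Cog3, -0.62 to 0.77 for Cog5 and -0.14 to 0.23 for Cog8. For Cog4 in Cd38-/- against Cd38+/-, leaving out one library gave -0.0822 to 0.140. The share of Cog3 in Cd38-/- less Cd38+/+ was -0.399 points with quantile normalization, -0.269 with the trend removed and -0.610 to 1.12 with one library left out. With Cog6 left out of the sum, tried after seeing the data, the share of Cog1 in Cd38-/- less Cd38+/+ was 0.973 points and that of Cog7 2.96 (exact permutation p = 0.0238), and in Cd38+/- less Cd38+/+ that of Cog2 was 7.003 and of Cog7 2.18. The share of Cog1 in the 8-subunit sum was -1.34 to 0.767, of Cog5 -5.68 to -0.310 and of Cog8 -5.48 to -0.0752 with one library left out. In Cd38-/- less Cd38+/- the share of Cog2 was -1.12 points with the trend removed (exact permutation p = 0.0238), and that of Cog6 -1.07 with quantile normalization (exact p = 0.0476), -1.73 with the trend removed (exact p = 0.0119) and -1.27 to -0.711 with one library left out.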
